A study of Mus musculus with 4 samples.

Results

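The genes described here encode the transforming growth factor β (TGF-β) ligands, the latent TGF-β binding proteins (called latency proteins below) and the TGF-β receptors. They were taken by symbol from the count table: the ligand genes Tgfb1, Tgfb2 and Tgfb3, the latent TGF-β binding protein genes Ltbp1, Ltbp2, Ltbp3 and Ltbp4, and the receptor genes Tgfbr1, Tgfbr2 and Tgfbr3. All 10 were among the 22063 genes listed, and 9 of the 10 were among the 11727 genes with enough reads to be tested, Tgfb3 being the exception. The libraries were made from polyadenylated RNA of TKPT cells (TKPTS in the study), a wild-type mouse kidney line described as proximal tubule epithelium, kept at 1% oxygen for 24 h and then in normal oxygen for 12 h. The si-NC group (scrambled siRNA, replicates 2 and 3) was compared with the si-Itgb6 group (siRNA against Itgb6, replicates 1 and 3), so that both groups carried a transfected siRNA and both went through hypoxia and reoxygenation. Itgb6 encodes the β6 chain of integrin αvβ6, and the comparison was meant to address what silencing it does to the transcripts of these cells. No source used here ties the libraries to separate cultures, and one line and one siRNA treatment stand for each group, so each p-value below measures the spread between these libraries only.

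TGF-β is secreted as an inactive complex in which the mature dimer stays wrapped in its own latency-associated peptide. A latent TGF-β binding protein is usually bound to that peptide and tethers the complex to extracellular matrix, and integrin αvβ6 on epithelial cells grips an arginine-glycine-aspartate (RGD) motif in the peptide and pulls the ligand free. Active TGF-β then binds the type II receptor, which phosphorylates the type I receptor and so starts Smad signalling, a main driver of matrix deposition in injured kidney.

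The deposited estimated counts summed to between 15435074 and 17220281 per library. Itgb6 itself was counted at 285 and 284 in the si-NC libraries and at 279 and 260 in the si-Itgb6 libraries, a log2 fold change (si-Itgb6 against si-NC) of -0.01 ± 0.13 (SE, n = 2 per group, 95% interval -0.27 to 0.26), so the targeted transcript was not lower in the si-Itgb6 libraries. The study reports lower αvβ6 protein by western blot after this siRNA in hypoxic cells, and says that its efficiency was checked by qPCR and western blot. Protein was not measured in these libraries. The group names below follow the labels and nothing else. Epithelial markers were abundant, 6 of 7 being tested, with a summed level of 4990 to 5240 CPM (the count of a gene scaled to the library total). Of 11 proximal tubule markers, 6 were tested, and Slc34a1, Slc5a2 and Slc22a6 were listed at 0 in every library. Their summed level was 32.9 and 37.7 CPM in si-NC against 47.9 and 48.1 CPM in si-Itgb6. Nearly all of that difference was Aqp1, at 23.7 and 27.6 CPM in si-NC and 38.8 and 38.4 CPM in si-Itgb6. The median log2 fold change of the 6 markers tested was 0.01, so the class as a whole did not shift. The 6 fibroblast markers summed to 3.19 and 3.53 CPM in si-NC and to 5.1 and 3.28 CPM in si-Itgb6. Replicate 1 of si-Itgb6 held 22 counts of Col1a1 where no other library held more than 2. That library also held 14 counts of Col3a1 and 5 of Dcn, where no other library held more than 1. Lyz2, a macrophage marker, had 11 counts there and 0 elsewhere. Itgam, at 2 counts, and Lum, at 1, were also highest in that library. Pdgfrb, at 35 counts, and Ptprc, at 0, were lowest there, while Adgre1 was at 0 there as in both si-NC libraries. The 6 macrophage markers summed to 132 and 141 CPM in si-NC and to 127 and 121 CPM in si-Itgb6, nearly all of it Cd68 and Csf1r, while the defining markers Ptprc, Adgre1, Itgam and Lyz2 had 0 to 11 counts in a library and were not tested. The part of these markers in the results below was not tested. In such bulk libraries, fewer cells that express a gene and less of its RNA per cell cannot be told apart.

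The ligand genes differ in the RGD motif that αvβ6 recognises, and the coding stretch around it is shown for that reason, read from GRCm38 on the coding strand with the 3 codons in capitals. Tgfb1 has it in exon 5 of 7 at chr7:25697136-25697165 on the plus strand, Tgfb3 in exon 5 of 7 at chr12:86062150-86062179 on the minus strand, and the Tgfb2 codons that align with both lie in exon 6 of 8 at chr1:186630738-186630767 on the minus strand.
Tgfb1: aaacgtCGGGGCGACctgggcaccatccat
Tgfb3: catggcCGTGGAGACctggggcgtctcaag
Tgfb2: tatgccAGTGGTGATcagaaaactataaag
A search in frame for an arginine codon (CGN, AGA or AGG) followed by GGN and then GAT or GAC found 1 such triplet in the longest coding sequence of Tgfb1 and 1 in that of Tgfb3. The Tgfb2 stretch begins with AGT in place of an arginine codon, and neither Tgfb2 nor any of the 7 latency protein and receptor genes held the triplet. Among 11666 genes tested that have a coding transcript, 8.51% held at least 1, so a match by itself is common.

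The 10 genes spanned a wide range of levels per transcript length, given in the deposited FPKM (fragment counts scaled to transcript length and library total) as the mean ± SD over the 4 libraries. Each class had 1 dominant gene. Tgfbr2, the type II receptor, stood first at 27.3 ± 0.332 FPKM, above 75.3% of the genes tested. Ltbp3, a latency protein, followed at 18.8 ± 2.63 FPKM, and Tgfb1, the ligand best known from kidney fibrosis, at 14.5 ± 0.45 FPKM. These 3 genes lay above the median gene tested, at 9.07 FPKM, and the other 7 lay below it.

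Tgfbr1, the type I receptor, came next at 2.19 ± 0.317 FPKM, and Ltbp1, the first latency protein to be described, stood at 1.5 ± 0.0979 FPKM. Ltbp2, which binds fibrillin and, unlike its relatives, is thought not to bind latent TGF-β, stood at 0.886 ± 0.567 FPKM. Ltbp4, a latency protein with a role in elastic fibres, stood at 0.802 ± 0.233 FPKM and Tgfb2 at 0.735 ± 0.101 FPKM. Tgfbr3, the co-receptor betaglycan that presents ligands to the type II receptor, reached 0.457 ± 0.174 FPKM, and Tgfb3 was the lowest at 0.068 ± 0.0412 FPKM. In this order the library ranges overlapped between neighbours for Ltbp1 and Ltbp2, Ltbp2 and Ltbp4, Ltbp4 and Tgfb2, and Tgfb2 and Tgfbr3, so those pairs are not separated by these libraries. Per kilobase of the longest annotated transcript in place of the length behind the FPKM, Tgfbr2 stood at 14.9 CPM per kilobase, next to Ltbp3 at 14.8 and Tgfb1 at 12.2. On that scale Ltbp2 moved from the sixth place to the ninth, at 0.412 CPM per kilobase.

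The dominance held in each of the 4 libraries. Tgfb1 made up 93.9 to 95.7% of the summed FPKM of the 3 ligands, with Tgfb2 at 4.08 to 5.32% and Tgfb3 at 0.227 to 0.793%. Ltbp3 made up 83.8 to 87.4% of the latency proteins, and Tgfbr2 90.2 to 92.4% of the receptors. Of the RGD-bearing ligands, Tgfb1 was therefore the one with most of the transcript, and Tgfb3 had between 2 and 7 counts in a library.

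**Figure D1:**
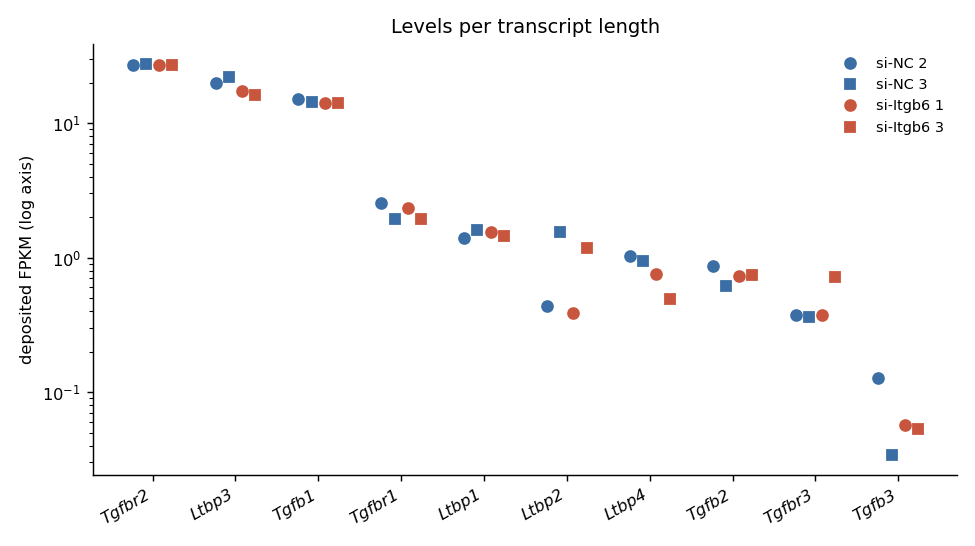
Deposited FPKM (log axis) of the 10 genes in each of the 4 libraries, ordered by their mean, with si-NC in blue, si-Itgb6 in red, circles for the first and squares for the second library of each group. Tgfbr2, Ltbp3 and Tgfb1 sit at 14.2 FPKM or above in every library, and the other 7 genes at 2.55 FPKM or below.

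Between the groups, the ligands did not pass the test. The level of Tgfb1 was 32.3 and 31.2 CPM in si-NC (scaled by TMM, 527 and 538 counts) and 30.4 and 31.3 CPM in si-Itgb6 (471 and 516 counts). The 4 values lie close together and the groups overlap. The log2 fold change was -0.04 ± 0.10 (SE, 95% interval -0.25 to 0.17), with an adjusted p of 0.886 (edgeR quasi-likelihood test, Benjamini-Hochberg). Tgfb2 stood at 3.31 and 3.13 CPM in si-NC and 3.68 and 3.77 CPM in si-Itgb6, from 54 to 62 counts a library. Both si-Itgb6 libraries lay above both si-NC libraries, but the log2 fold change of 0.21 ± 0.28 had a 95% interval of -0.35 to 0.77 and an adjusted p of 0.744 (edgeR quasi-likelihood test, Benjamini-Hochberg). Tgfb3 was counted at 7 and 2 in si-NC and at 3 in each si-Itgb6 library, where no difference could be detected at this depth. Exons of Tgfb2 and Tgfb3 overlap annotated genes on the opposite strand, whose reads cannot be set apart in libraries made without strand information.

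Among the latency proteins, Ltbp4 was the only gene of the 10 that passed the thresholds of the study. These were a fold change over 1.2 together with an unadjusted p under 0.05, and only such genes are said below to be called. The calls come from the edgeR fit used here and are not the study's own list of genes. Ltbp4 (ENSMUSG00000040488, chr7:27305136-27337692, minus strand) stood at 5.21 and 4.57 CPM in si-NC, from 85 and 79 counts, and at 2.2 and 2.61 CPM in si-Itgb6, from 34 and 43 counts. Both si-Itgb6 libraries held fewer counts than either si-NC library, and the groups did not overlap. The mean fell from 4.89 ± 0.451 CPM to 2.4 ± 0.294 CPM (SD, n = 2 per group). The log2 fold change was -1.02 ± 0.28 (SE, 95% interval -1.58 to -0.45), which is 2.03-fold lower, with an unadjusted p of 0.000865 and an adjusted p of 0.0278 (edgeR quasi-likelihood test, Benjamini-Hochberg). By p the gene ranked 365 of the 11727 tested, of which 5.20% were called lower and 4.37% higher. At an adjusted p under 0.05, Ltbp4 was again 1 of 9, where 2.52% of the genes tested passed lower and 2.11% higher. A single gene of 9 is close to what these backgrounds give, and is a value of Ltbp4 and not of the 10 genes together.

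The size of the Ltbp4 difference depended on the unit. In the deposited FPKM the libraries stood at 1.02 and 0.941 in si-NC and at 0.76 and 0.492 in si-Itgb6, and the difference was -0.60 on the log2(FPKM + 0.1) scale, which did not pass (unadjusted p = 0.0815, adjusted p = 0.409, limma). Ltbp4 transcripts are rich in G and C, at 62.2%, and log2 fold changes were lower in genes of higher GC content, with Spearman's rho at -0.364. That correlation runs over 11709 genes of the same 4 libraries and is a description. After removal of each library's trends on GC content and transcript length, the log2 fold change was -0.84 (unadjusted p = 0.00526) and the edgeR adjusted p was 0.122. Without any 1 of the libraries the value was -1.15 to -0.90 with every unadjusted p under 0.05, while the edgeR adjusted p was 0.398 without replicate 2 of si-NC, 0.111 without replicate 3 of si-NC, 0.0907 without replicate 1 of si-Itgb6 and 0.0568 without replicate 3 of si-Itgb6.

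The other latency proteins also had estimates below 0. Ltbp3, the most abundant of them, stood at 91.4 and 90.8 CPM in si-NC and at 81.5 and 76.2 CPM in si-Itgb6. The groups did not overlap, and the means were 91.1 ± 0.41 and 78.9 ± 3.75 CPM (SD, n = 2 per group). The log2 fold change was -0.21 ± 0.07 (SE, 95% interval -0.36 to -0.06, unadjusted p = 0.00711), but the fold of 1.15 missed the threshold and the adjusted p was 0.0934 (edgeR quasi-likelihood test, Benjamini-Hochberg). Removal of the GC and length trends left -0.08 (edgeR unadjusted p = 0.244), while the log2(FPKM + 0.1) scale gave -0.32 (limma unadjusted p = 0.009), where it would be called. For Ltbp3, 2 of the 4 estimated counts were not whole numbers.

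Ltbp1 stood at 8.89 and 9.55 CPM in si-NC and at 8.79 and 7.9 CPM in si-Itgb6. The groups just failed to overlap, and the log2 fold change of -0.15 ± 0.18 did not pass (95% interval -0.51 to 0.22, edgeR adjusted p = 0.721). Ltbp2 stood at 2.88 and 3.36 CPM in si-NC and at 1.74 and 3.16 CPM in si-Itgb6, where replicate 1 was low and replicate 3 lay within the si-NC range. Its log2 fold change of -0.34 ± 0.32 did not pass (95% interval -1.004 to 0.32, edgeR adjusted p = 0.633), and without replicate 1 of si-Itgb6 it was 0.02. Over the 4 latency proteins the median log2 fold change was -0.27, or -0.15 with the GC and length trends removed, beside 0.00 over all genes tested.

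**Figure D2:**
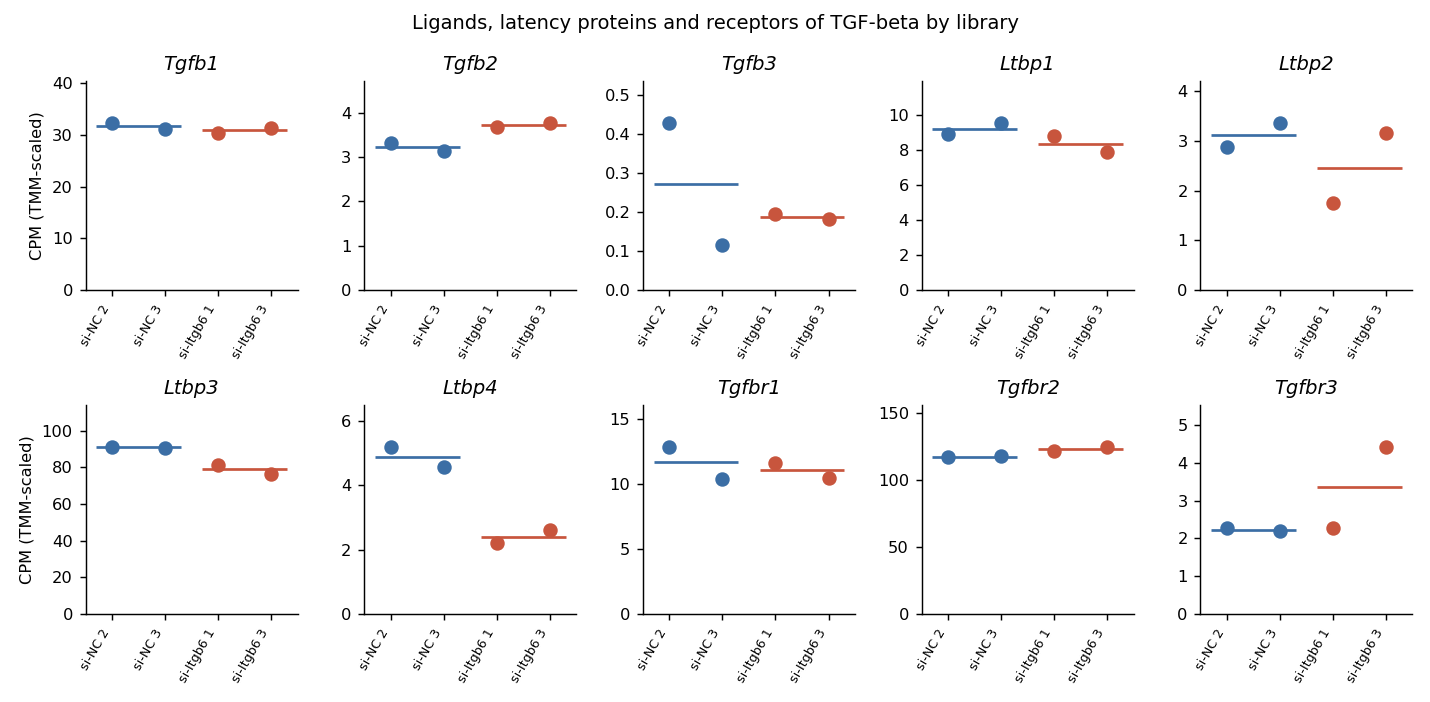
TMM-scaled CPM of the 10 genes in each library, with si-NC in blue, si-Itgb6 in red, a line at each group mean and axes that start at 0. The si-NC values of Ltbp4 (5.21 and 4.57 CPM) stand apart from the si-Itgb6 values (2.2 and 2.61 CPM), and 1 si-Itgb6 library stands apart for Tgfbr3 (4.43 CPM) and for Ltbp2 (1.74 CPM).

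No receptor was called. Tgfbr2 stood at 117 and 118 CPM in si-NC and at 122 and 125 CPM in si-Itgb6. The 2 groups did not overlap but lay within a few percent of each other, and the log2 fold change was 0.07 ± 0.06 (SE, 95% interval -0.06 to 0.20), with an adjusted p of 0.602 (edgeR quasi-likelihood test, Benjamini-Hochberg). The direction turned on the log2(FPKM + 0.1) scale, where the difference was -0.02. Tgfbr1 stood at 12.9 and 10.4 CPM in si-NC and at 11.6 and 10.5 CPM in si-Itgb6, with overlapping groups, a log2 fold change of -0.07 ± 0.16 and a 95% interval of -0.40 to 0.26 (edgeR adjusted p = 0.86).

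Tgfbr3 was counted at 37 and 38 in si-NC and at 35 and 73 in si-Itgb6, or 2.27, 2.2, 2.26 and 4.43 CPM. The first 3 of these libraries were alike, and replicate 3 of si-Itgb6 alone was high. The log2 fold change of 0.59 ± 0.33 (SE, 95% interval -0.09 to 1.27) did not pass, with an adjusted p of 0.352 (edgeR quasi-likelihood test, Benjamini-Hochberg). It was 0.02 without replicate 3 of si-Itgb6 and 0.99 without replicate 1 (edgeR unadjusted p = 0.00823, adjusted p = 0.0921), so that 1 library decided the value. A gene model on the same strand, Gm43422, shares exon sequence with Tgfbr3.

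Over the 9 genes tested, 6 log2 fold changes lay below 0 and 3 above, with a median of -0.07. All libraries of one group lay beyond those of the other for 3 genes that were lower (Ltbp1, Ltbp3 and Ltbp4) and 2 that were higher (Tgfb2 and Tgfbr2) in si-Itgb6, where 25.4% and 23.8% of all genes tested were separated in these directions. With 2 libraries against 2, an exact two-sided permutation test of a single gene cannot give a p below 0.333.

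**Figure D3:**
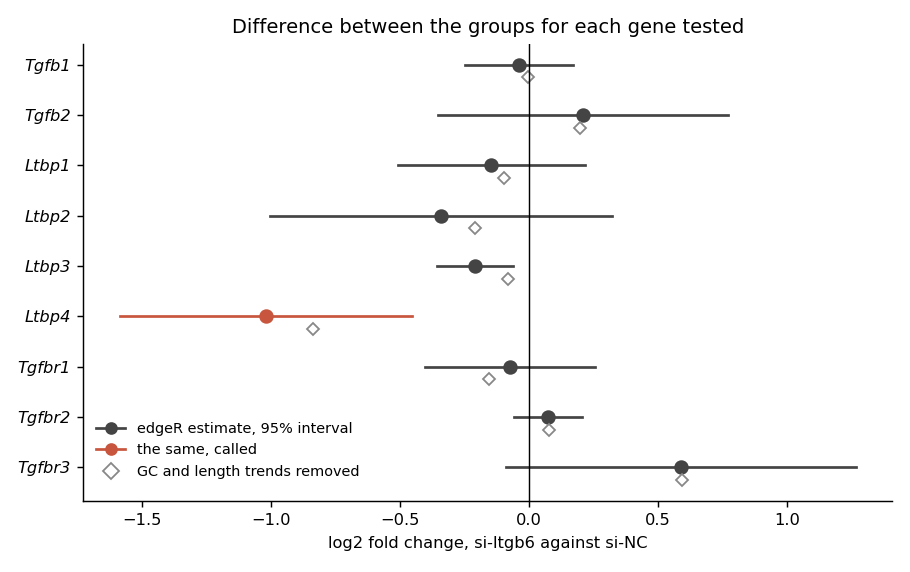
Log2 fold change of si-Itgb6 against si-NC for the 9 genes tested (circles, with 95% intervals from the edgeR fit; red, called) and the estimate with GC and length trends removed (open diamonds). The interval of Ltbp4 (-1.58 to -0.45) and that of Ltbp3 (-0.36 to -0.06) lie below 0, and the other 7 include 0.

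The counts and the FPKM of a gene give the transcript length that the quantification assigned to it in each library, since FPKM is the count divided by length and library total. For 769 genes with a single annotated transcript, 97.7% gave the annotated length within 1%. For Ltbp4 the implied length was 5158 and 4875 bases in si-NC and 2898 and 5235 bases in si-Itgb6, so replicate 1 of si-Itgb6 was assigned shorter transcripts than the other 3. Its coding transcripts in the annotation (GENCODE, GRCm38) run from 684 to 5386 bases, with 1 of 3444 bases among them.

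For Ltbp2 the implied length was 6607 and 2181 bases in si-NC and 4520 and 2651 bases in si-Itgb6, a 3.03-fold range that does not follow the groups. Its FPKM moved accordingly, from 0.439 and 1.54 in si-NC to 0.387 and 1.18 in si-Itgb6, while its counts ran from 27 to 58. Of 10711 genes with at least 20 counts in every library, 356 (3.32%) had a range over 1.5-fold, and of the 10 genes described here Ltbp2 and Ltbp4 did. Tgfb1, Tgfbr2 and Tgfbr3 ranged by at most 1.06-fold.

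**Figure D4:**
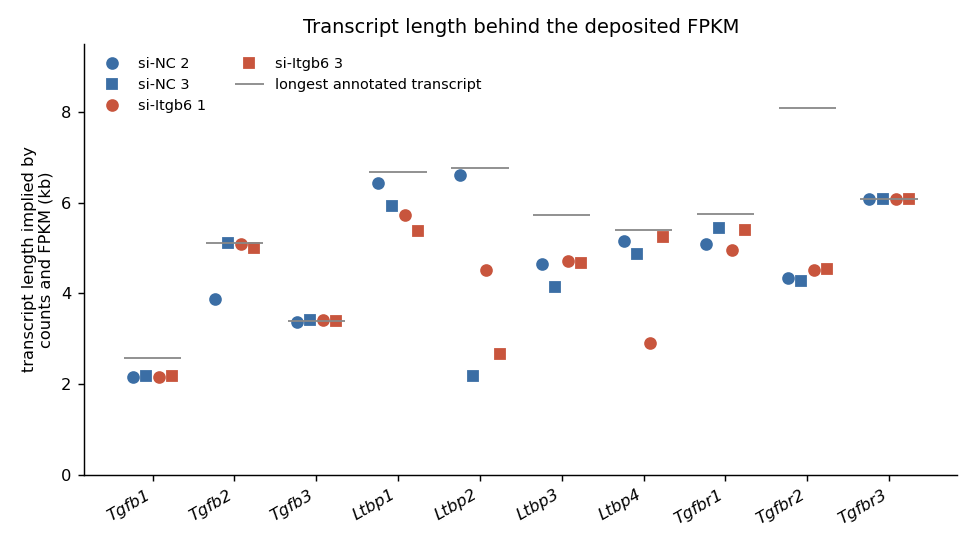
Transcript length in kilobases implied by the deposited counts and FPKM for each gene and library (si-NC in blue, si-Itgb6 in red, circles and squares for the first and second library of a group; grey line, longest annotated transcript). Ltbp2 spreads from 2181 to 6607 bases and Ltbp4 has 1 library at 2898 bases, while the points of Tgfb1 and Tgfbr3 lie on top of each other.

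The genes whose pattern over the 4 libraries was most like that of Ltbp4 were Tymp, Klhl17 and Caskin2, by the root mean square difference of log2 CPM centred over the libraries, which was 0.02, 0.03 and 0.08. Tymp was counted at 69 and 67 in si-NC and at 28 and 35 in si-Itgb6. Klhl17 was counted at 105 and 94 against 41 and 51, and Caskin2 at 255 and 225 against 116 and 122. Of the 11727 genes tested, 5 lay within 0.1 of Ltbp4 and 72 within 0.2.

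The rest of the pathway was read from 7 lists that hold 84 further genes, of which 55 were tested. Of these, 6 were called lower and 5 higher, together 20.0%, where 9.57% of all genes tested were called in either direction. The median log2 fold change was -0.01. At an edgeR Benjamini-Hochberg adjusted p under 0.05 the counts were 3 lower and 2 higher, against 4.62% of all genes tested in either direction. After removal of the GC and length trends 1 was called lower and 5 higher, where 3.59% and 3.58% of all genes tested were. These lists are not independent of earlier results of these data.

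The proteins that anchor the latent complex were nearly silent apart from fibronectin. Of 8 such genes only Fn1 was tested, and the other 7, Lrrc32 and Fbn1 among them, had at most 5 counts in a library. Fn1 stood at 1220 CPM in both si-NC libraries and at 1120 and 1150 CPM in si-Itgb6, with a log2 fold change of -0.10 (edgeR adjusted p = 0.194).

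Of 13 genes that activate latent TGF-β, 11 were tested, 2 were called lower and 1 higher, beside 5.20% and 4.37% of all genes tested. Furin, the protease that cuts the propeptide from the ligand, had log2 fold change -0.29 (600 and 471 counts in si-NC, 404 and 429 in si-Itgb6), with 1 high si-NC library. Without that library, replicate 2, the value was -0.07 (edgeR unadjusted p = 0.641) and the call ended, as it did with the GC and length trends removed, with DESeq2 and with limma on FPKM. Bmp1, a metalloprotease that cleaves latency proteins, had -0.32 (489 and 553 against 389 and 406 counts), and its call ended without replicate 3 of si-NC (-0.27) and with the GC and length trends removed (-0.21). Itgb8, the β chain of another integrin that activates latent TGF-β, had 1.74 on 6 and 17 against 45 and 28 counts. It was the only one of the 3 called with an adjusted p under 0.05 (0.0327, edgeR quasi-likelihood test, Benjamini-Hochberg). Without 1 library Itgb8 ran from 1.22 to 2.62, and its edgeR adjusted p was 0.523 without replicate 2 of si-NC, 0.0802 without replicate 3 of si-NC, 0.249 without replicate 1 of si-Itgb6 and 0.0885 with the GC and length trends removed. Itgav, the partner chain of Itgb6 and Itgb8, had -0.04, and the listed β chains Itgb1, Itgb3 and Itgb5 had 0.001, -0.07 and -0.09.

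Among 8 co-receptors, decoys and binding proteoglycans, 2 were tested and none was called. Bambi, a pseudoreceptor that dampens TGF-β signalling, was counted at 22 and 26 in si-NC and at 42 and 35 in si-Itgb6, with a log2 fold change of 0.75 whose 95% interval ran from -0.04 to 1.55 (edgeR adjusted p = 0.298). Tgfbrap1, a receptor-associated protein, was counted at 251 and 230 against 199 and 227.

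All 15 genes of signal transduction and feedback were tested and 1 was called (6.67%), where 9.57% of all genes tested were called in either direction. Pmepa1, a TGF-β-induced inhibitor of Smad signalling, had a log2 fold change of -0.31 (312 and 359 against 278 and 237 counts, edgeR adjusted p = 0.197). Its call ended without replicate 3 of si-Itgb6 (-0.15) or of si-NC (-0.24), with the GC and length trends removed (-0.22), with DESeq2 and with limma on FPKM, and without replicate 1 of si-Itgb6 it was -0.47. Smurf1, a ubiquitin ligase of the pathway, had -0.25 with an edgeR adjusted p of 0.00905, short of the fold threshold. With the GC and length trends removed Smurf1 had -0.16 (edgeR adjusted p = 0.158).

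Of 23 TGF-β target genes, 15 were tested, 2 were called lower and 3 higher, beside 5.20% and 4.37% of all genes tested. At an edgeR Benjamini-Hochberg adjusted p under 0.05, 2 were lower and 1 higher, beside 2.52% and 2.11%. The groups did not overlap for 6 lower and 3 higher, where 25.4% and 23.8% of all genes tested were separated in these directions. Snai1, a repressor of epithelial genes, had a log2 fold change of -2.10 on 43 and 25 against 6 and 9 counts (edgeR adjusted p = 0.015). Pmepa1, named above, was the other target called lower. Without replicate 2 of si-NC, Snai1 was at -1.61 (edgeR unadjusted p = 0.0526) and was no longer called. Bhlhe40, a transcriptional repressor, had -0.21 with an edgeR adjusted p of 0.00823, short of the fold threshold. Tgfbi, a secreted matrix protein, had 1.71 on 6 and 5 against 14 and 21 counts (edgeR adjusted p = 0.118). Cdkn2b, a cell cycle inhibitor, had 0.31 (edgeR adjusted p = 0.221) and Timp3, an inhibitor of metalloproteases, had 0.36 (1076 and 1266 against 1380 and 1481 counts, edgeR adjusted p = 0.00296). The Tgfbi call ended with DESeq2 and without replicate 2 of si-NC, replicate 3 of si-NC or replicate 3 of si-Itgb6. That of Cdkn2b ended with DESeq2 and without replicate 2 of si-NC or replicate 1 of si-Itgb6, and that of Timp3 held in each of these, though its edgeR adjusted p was 0.318 without replicate 2 of si-NC. The median over the 15 was -0.04.

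Of 9 other type I and type II receptors, 6 were tested and 1 was called lower, beside 5.20% of all genes tested. Acvr1b, the activin type I receptor, was called lower at -0.28 (348 and 368 against 266 and 297 counts, edgeR adjusted p = 0.215). That call held without replicate 3 of si-Itgb6 and ended without each of the other 3 libraries, with the GC and length trends removed, with DESeq2 and with limma on FPKM. Of 12 other ligands of the family, 9 were tested, 1 was called lower and 1 higher, beside 5.20% and 4.37% of all genes tested. Bmp2, a bone morphogenetic protein, was called lower at -0.43 (183 and 151 against 131 and 104 counts, edgeR adjusted p = 0.206). It was -0.25 without replicate 2 of si-NC and -0.23 without replicate 3 of si-Itgb6, where the call ended, and -0.66 without replicate 1 of si-Itgb6. The Bmp2 call also ended with the GC and length trends removed, with DESeq2 and with limma on FPKM. Inhba, the activin A subunit, was called higher at 0.57 (123 and 139 against 206 and 164 counts, edgeR adjusted p = 0.0576), but was -0.06 on the log2(FPKM + 0.1) scale and 0.35, not called, without replicate 1 of si-Itgb6.

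**Figure D5:**
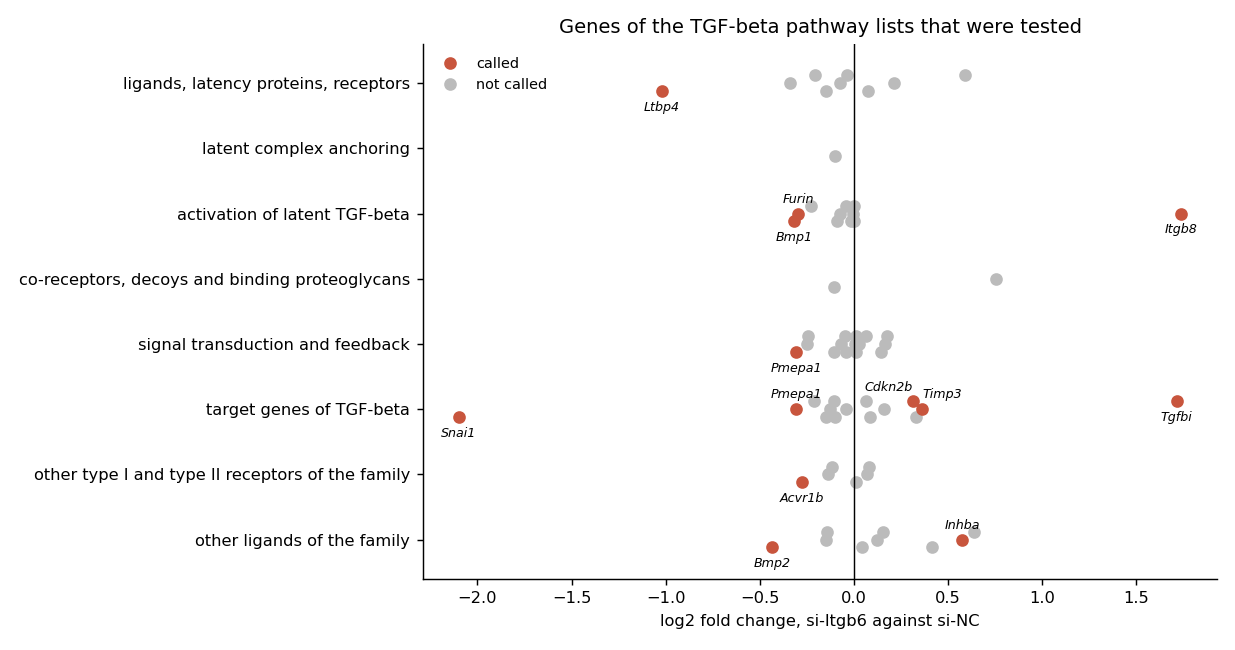
Log2 fold change of si-Itgb6 against si-NC for every gene tested of the 10 described here (top row) and of the 7 pathway lists, with the genes called in red and named. Called genes lie on both sides of 0, from Snai1 at -2.10 to Itgb8 at 1.74, and a gene held by 2 lists is drawn in both.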

How the data were processed

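Polyadenylated RNA was sequenced from non-stranded libraries as paired reads, per the study's methods. The aligner, counting tool and genome build are not given in the sources used here. The authors deposited, per gene and library, estimated counts (not whole for some genes) and FPKM. The 10 genes and the pathway and marker lists were chosen with earlier results of these data known.

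Estimated counts were rounded and tested in R 4.3.3 with edgeR 4.0.16 (TMM factors, filterByExpr with a minimum count of 10, quasi-likelihood test on all 11727 genes kept), and a gene was called, after the criteria of the study, where its fold change was over 1.2 and its unadjusted p under 0.05. P-values were adjusted by the Benjamini-Hochberg method over all genes tested. Depth was 15435074 to 17220281 counts per library, which limits genes with few counts. All 10 genes, the genes called in each pathway list (or its 2 most abundant) and the 3 genes most like the one with the smallest p were named. Alternatives were other normalizations and filters, the edgeR exact and likelihood ratio tests, DESeq2 1.42.0, limma 3.58.1 on log2(FPKM + 0.1), removal of GC and length trends by lowess, other thresholds and leaving out each library. The scripts were tested on simulated data. Positions, exons, lengths and coding sequences came from GENCODE on GRCm38, in which 99.6% of the gene identifiers were found.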

Additional observations from a re-analysis of the deposited data

How the results depend on the processing

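No paired analysis was possible because the groups share only replicate number 3. The count of the 10 genes called lower stayed at 1 under every alternative run, but in the FPKM that gene was Ltbp3 and not Ltbp4 (-0.32 and -0.60 on the log2 scale). The count called higher was 0, or 0 to 1 without 1 library, the 1 being Tgfbr3 without replicate 1 of si-Itgb6. Of the pathway genes, 6 were called lower, against 2 with DESeq2, 1 with GC and length trends removed, 1 at a fold change over 1.5 and 3 at an adjusted p under 0.05. Without 1 library that count was 2 (without replicate 2 of si-NC) to 7. The 5 called higher became 9 with no filter, 3 with DESeq2, 2 at a fold change over 1.5, 2 at an adjusted p under 0.05, and 3 to 6 without 1 library. In the FPKM the direction turned for Tgfbr2 (-0.016), Inhba (-0.064) and Tgfbrap1 (0.085). Without 1 library it turned within the ranges of Ltbp2 (-0.835 to 0.015), Tgfbr1 (-0.216 to 0.085), Itgb6 (-0.103 to 0.091), Itgav (-0.102 to 0.024) and Tgfbrap1 (-0.204 to 0.0002). The adjusted p of Ltbp4 ran from 0.00761 with no filter to 0.409 in the FPKM, and DESeq2 gave none. The cause of these changes was not tested. Depth left Tgfb3, at 2 to 7 counts a library, without a test.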
